A study of Mus musculus with 14 samples.

Results

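Liver tumours of the mouse in which a guide RNA and Cas9 targeted Keap1 (sgKeap1, n = 3) were compared with tumours in which Cul3 was targeted (sgCul3, n = 3). These 6 samples, of 14 in the series, were taken by their labels as MYC/sgKeap1 and MYC/sgCul3 tumours. All 14 are labelled as hepatocellular carcinoma driven by MYC, from hepatocytes, so the controls carry MYC too. The 4 controls of the same table have a guide against GFP (sgGFP), which is not a gene of the mouse. A second table, scaled on its own, holds 2 tumours whose guide was aimed at the NRF2 ETGE motif (sgNrf2, A and B). It also holds 2 control libraries, A and B, which the labels give as sgGFP tumours 2 and 4 repeated. The labels give no age or strain, do not say whether tumours come from separate animals, and give the guide but not the edit in each tumour. The p-values therefore cover the spread among the tumours at hand, which may be partly technical.

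NRF2, encoded by Nfe2l2, is a transcription factor that switches on genes of glutathione synthesis, thiol reduction, NADPH supply and drug conjugation. In unstressed cells KEAP1 binds NRF2 through its ETGE motif and hands it to the ubiquitin ligase built on CUL3, so that NRF2 is degraded. KEAP1 is 1 adaptor among many, whereas CUL3 is the scaffold on which many adaptors of the BTB family present other substrates, among them cyclin E, RHOA, RHOBTB2 and the WNK kinases. The design text of the series gives both guides as ways to activate NRF2. The comparison of the guides asks what differs between targeting the adaptor and targeting the scaffold.

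Reads on genes came to 6333025 to 12008223 per tumour in the table of the 10 tumours, and 3 of the 6 tumours compared were of lower depth (sgCul3 tumour 1, sgKeap1 tumours 2 and 3, with 6333025 to 6754550). sgKeap1 tumour 2 stood apart: its 10 genes with most reads took 24.5% of its reads, against 8.10% to 18.0% in the other 9 tumours. Albumin, Alb, the main secreted protein of hepatocytes, was at 73520, 1047000 and 81460 in sgKeap1 and at 53560, 162300 and 35820 in sgCul3, each in the order of tumours 1 to 3. Levels here and below are counts scaled by DESeq, with the 1 that the authors added taken off. The summed level of 12 hepatocyte markers was 183400 to 1260000 in sgKeap1 and 162300 to 398890 in sgCul3, so the labelled cell type was present in every tumour. On the first principal component of all genes tested, with 39.1% of the variance, sgKeap1 tumour 2 lay at 101 and the other 5 tumours of the 2 guides between -11.7 and 40.6.

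The targeted transcripts were measured first. Keap1 (ENSMUSG00000003308.14, GRCm38 chromosome 9, 21229730 to 21239361) was at 462, 414 and 287 in sgKeap1 tumours 1 to 3 and at 1150, 908 and 823 in sgCul3 tumours 1 to 3. Its means were 388 ± 90.2 and 960.1 ± 169 (SD, n = 3 each). Every sgKeap1 tumour was below every sgCul3 tumour, and below the sgGFP tumours, which were at 599, 582, 707 and 721. The log2 fold change between the guides was -1.32 ± 0.22 (SE) and did not pass over all genes (limma, Benjamini-Hochberg adjusted p = 0.099). Cul3 (ENSMUSG00000004364.14, chromosome 1, 80264923 to 80340480) was at 163, 426 and 676 in sgCul3 and at 848, 596 and 895 in sgKeap1 tumours 1 to 3, with 935 to 1372 in sgGFP. Its means were 422 ± 256 and 779.6 ± 161, and sgCul3 tumour 3 lay above sgKeap1 tumour 2. Its log2 fold change of 1.08 ± 0.42 did not pass (adjusted p = 0.46). Nfe2l2 was at 611 to 843 in sgKeap1 and 589 to 1342 in sgCul3, and Myc at 1018 to 6146 and 2277 to 3066. Neither passed (log2 fold changes of -0.11 ± 0.31 and 0.15 ± 0.54, adjusted p = 0.91 and 0.93), and both changed sign when 1 tumour was left out. Myc was -0.35 without sgKeap1 tumour 1 and -0.15 without sgKeap1 tumour 3, and Nfe2l2 was 0.25 without sgCul3 tumour 3.

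**Figure D1:**
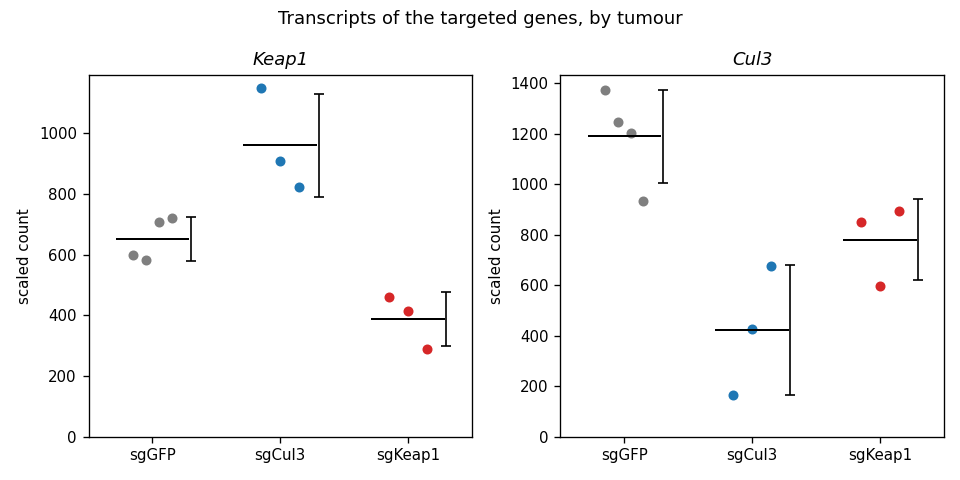
Scaled counts of Keap1 and Cul3 in each tumour (points) of the 3 groups, with the mean (line) and SD (bar). The 3 sgKeap1 tumours, at 287 to 462, lie below all others for Keap1, while the Cul3 levels of sgCul3 spread from 163 to 676 and reach those of sgKeap1.

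Few genes passed between the 2 guides at this depth. Of 13045 genes tested 8 were called at an adjusted p under 0.05, which is 0.0613% of them, 4 higher and 4 lower in sgKeap1. At an unadjusted p under 0.05 there were 634 higher and 681 lower. In 981 genes (7.52%) the 3 sgKeap1 tumours all lay above the 3 sgCul3 tumours, and in 1075 (8.24%) all below. Kitl, Rec8, Heph and Ugt8a were the 4 called higher, and Bsn, Map2, Fam169a and Glipr2 the 4 called lower. In each of the 8, the sgKeap1 tumours lay apart from the sgGFP tumours and the sgCul3 tumours lay near them or, for Map2, between.

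Kitl (ENSMUSG00000019966.17, chromosome 10, 100015630 to 100100416) encodes stem cell factor, the ligand of the receptor KIT. Its level was 684, 598 and 574 in sgKeap1, 198, 196 and 134.5 in sgCul3 (tumours 1 to 3 of each), and 149.7 to 166.5 in the 4 sgGFP tumours. No sgKeap1 tumour came near the other groups, and the ratio of means was 3.52 (log2 fold change 1.82 ± 0.21, adjusted p = 0.014). Rec8 (chromosome 14, 55618037 to 55625395), a cohesin subunit known from meiosis, was at 346, 259.5 and 205 in sgKeap1, at 20.7, 43.4 and 14.1 in sgCul3 and at 26.9 to 35.1 in sgGFP. It was 10.4 times higher in sgKeap1, with a log2 fold change of 3.38 ± 0.40 (adjusted p = 0.014). Heph (chromosome X, 96455359 to 96574485), or hephaestin, a copper enzyme that oxidises iron as it leaves cells, was at 279, 563.5 and 559.9 in sgKeap1, at 11.1, 36.3 and 3.91 in sgCul3 and at 2.69 to 15.1 in sgGFP. The lowest sgKeap1 tumour was thus several times the highest sgCul3 tumour (log2 fold change 4.96 ± 0.68, adjusted p = 0.029). Ugt8a (chromosome 3, 125865271 to 125938619), the enzyme that makes galactosylceramide, a lipid of myelin, was at 38.4, 213 and 46.2 in sgKeap1. It had 3 reads over the 3 sgCul3 tumours and levels of 1.35 to 2.30 in sgGFP. By reads scaled to depth the ratio was 79.7, with an exact 95% interval of 26.8 to 390.0 that covers counting error only (adjusted p = 0.028). sgKeap1 tumour 2 was the highest of the 3 for Ugt8a.

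Bsn (ENSMUSG00000032589.14, chromosome 9, 108096022 to 108190384) encodes bassoon, a scaffold protein of the presynaptic terminal. It had the smallest adjusted p of all genes, with 98.1, 62.8 and 77.9 in sgKeap1, 750.2, 452 and 525 in sgCul3 and 390.5 to 626.5 in sgGFP. The sgCul3 mean was 7.23 times that of sgKeap1 (log2 fold change -2.81 ± 0.27, adjusted p = 0.0054). Map2 (chromosome 1, 66175273 to 66442583), a microtubule protein of neurons, was at 17.2, 16.2 and 23.1 in sgKeap1, at 218, 259.7 and 102 in sgCul3 and at 299 to 683 in sgGFP. The 3 groups did not overlap, in the order sgKeap1, sgCul3, sgGFP (sgKeap1 minus sgCul3: log2 fold change -3.14 ± 0.39, adjusted p = 0.015). Fam169a (chromosome 13, 97067286 to 97131013) was at 15.5, 34.5 and 33.2 in sgKeap1, at 217, 123 and 259 in sgCul3 and at 178 to 354 in sgGFP. Its log2 fold change was -2.77 ± 0.39 (adjusted p = 0.030). Glipr2 (chromosome 4, 43957401 to 43979118), a protein bound to Golgi membranes, was at 342, 217 and 281 in sgKeap1, at 1130, 762 and 914 in sgCul3 and at 861 to 916 in sgGFP. The 4 sgGFP tumours were close to each other, and sgCul3 tumours 1, 2 and 3 lay above, below and within their range (sgKeap1 minus sgCul3: log2 fold change -1.74 ± 0.21, adjusted p = 0.015).

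**Figure D2:**
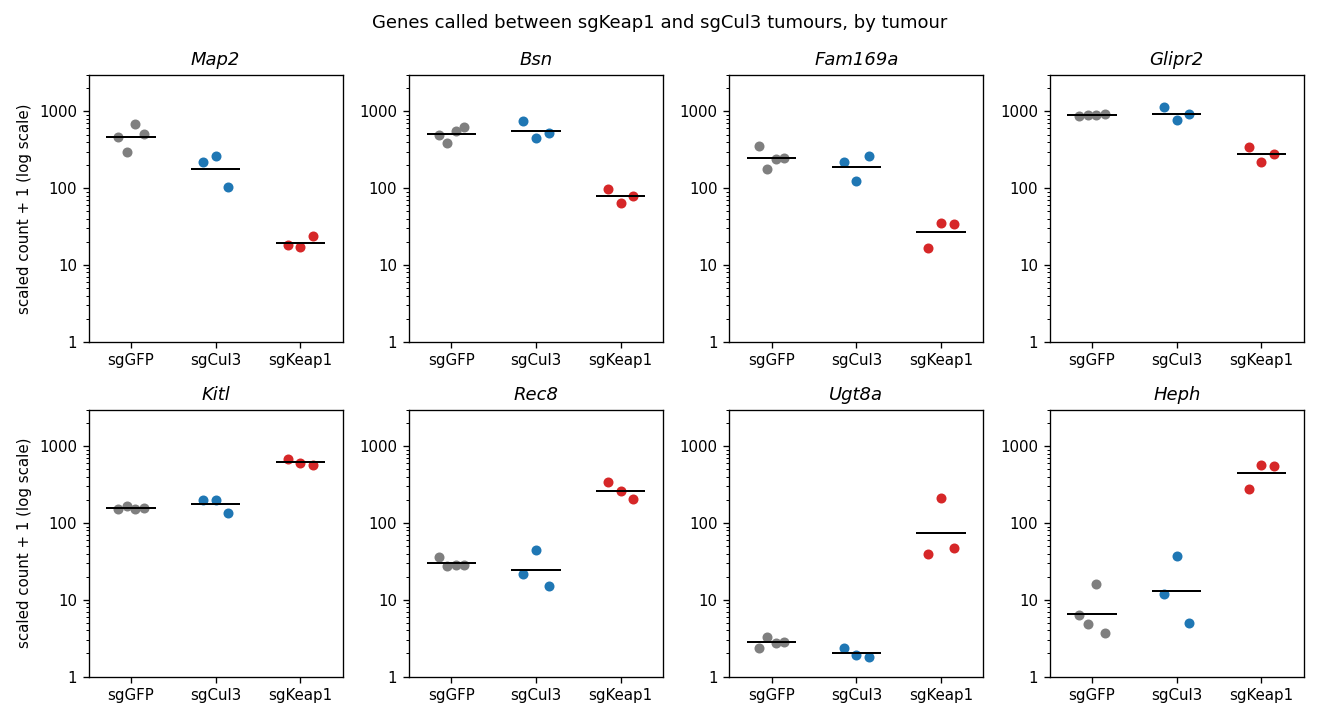
Scaled count plus 1 (log axis) of the 8 called genes in each tumour (points) of the 3 groups, with the geometric mean (line). Map2, Bsn, Fam169a and Glipr2 are low, and Kitl, Rec8, Ugt8a and Heph high, in all 3 sgKeap1 tumours, without overlap with either other group.

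These calls rest on few tumours. With the sgKeap1 and sgCul3 tumours fitted alone by limma none of the 8 passed (adjusted p of 0.16 to 0.17), though 1161 genes had an unadjusted p under 0.05. On recovered reads, with the sgGFP tumours in the fit, edgeR called 6 genes and DESeq2 104. In the limma fit of all 3 groups without sgKeap1 tumour 3, none of the 8 passed either (0.059 to 0.21). Bsn passed alone without sgCul3 tumour 1, Bsn and Glipr2 without sgKeap1 tumour 1, and Rec8, Kitl, Glipr2, Bsn and Ugt8a without sgKeap1 tumour 2. Without sgCul3 tumour 3 Glipr2, Heph, Ugt8a and Fam169a were lost, and without sgCul3 tumour 2 Map2 and Ugt8a. The spread is shared with sgGFP, and Heph, Ugt8a and Fam169a were lost without sgGFP tumours 2 or 4, Ugt8a and Fam169a without tumour 3, and Heph without tumour 1. All 8 kept their direction in every fit that tested them. Within the tumours of lower depth (sgCul3 tumour 1, sgKeap1 tumours 2 and 3) and within the others, the log2 difference of Kitl was 1.56 and 2.06, that of Rec8 3.36 and 3.69, that of Heph 5.43 and 4.22 and that of Ugt8a 4.91 and 3.83. In the same order it was -3.38 and -2.29 for Bsn, -3.37 and -3.10 for Map2, -2.61 and -3.37 for Fam169a and -2.19 and -1.28 for Glipr2. With this depth class as a term Rec8, Map2, Kitl, Bsn and Fam169a passed.

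Set beside the controls, all 8 genes were also called in sgKeap1 against sgGFP, where 7.82% of genes were called, and none in sgCul3 against sgGFP, where 2.2% were. These comparisons share their controls. The first shares its sgKeap1 tumours, and the second its sgCul3 tumours, with the choice of the 8. Neither is therefore independent of that choice. The sgCul3 log2 fold changes against sgGFP lay between -0.37 and 0.91 for 7 of the genes, with adjusted p of 0.51 to 0.92. For Map2 the value was -1.37 ± 0.36 (adjusted p = 0.084) in sgCul3 and -4.51 ± 0.36 (adjusted p = 7.6e-05) in sgKeap1.

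The sgNrf2 tumours took no part in choosing these genes. Their controls did in part, since A and B are labelled repeats of sgGFP tumours 2 and 4, which shared the spread in that fit. The test of sgNrf2 against controls A and B was added after the values had been seen. The 8 genes all differed in the same direction as between sgKeap1 and sgCul3, without overlap of the 2 and 2 libraries. Lack of overlap is common with 2 libraries a group. Over 12905 genes, both sgNrf2 tumours lay above both controls in 33.3% and below both in 30.5%. Of the 8 genes 7 were called in sgNrf2, against 4.41% of genes tested in that table. Kitl was at 980.3 and 955 in sgNrf2 tumours A and B and at 202 and 328 in controls A and B (log2 fold change 1.91 ± 0.30, adjusted p = 0.046). Rec8 was at 1550 and 501 against 81.9 and 44.3, and Ugt8a at 1012 and 153 against 6.47 and 1.27. sgNrf2 tumour A was the higher of the pair for both. Bsn was at 31.6 and 99.6 against 851 and 773, Map2 at 47.0 and 47.2 against 588 and 1349, Fam169a at 16.2 and 4.37 against 281 and 543 and Glipr2 at 264 and 385 against 1768 and 1769. Their log2 fold changes were -3.83 ± 0.58, -4.21 ± 0.46, -5.35 ± 0.72 and -2.47 ± 0.25 (adjusted p of 0.031 to 0.044). Heph, at 76.2 and 27.1 against 12.9 and 16.5, did not pass (1.58 ± 0.67, adjusted p = 0.19). With 2 tumours a group these calls are fragile: of the 8, 6 were called without control A, 2 without control B, 1 without sgNrf2 tumour B and 0 without sgNrf2 tumour A, 4 by edgeR and 7 by DESeq2.

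**Figure D3:**
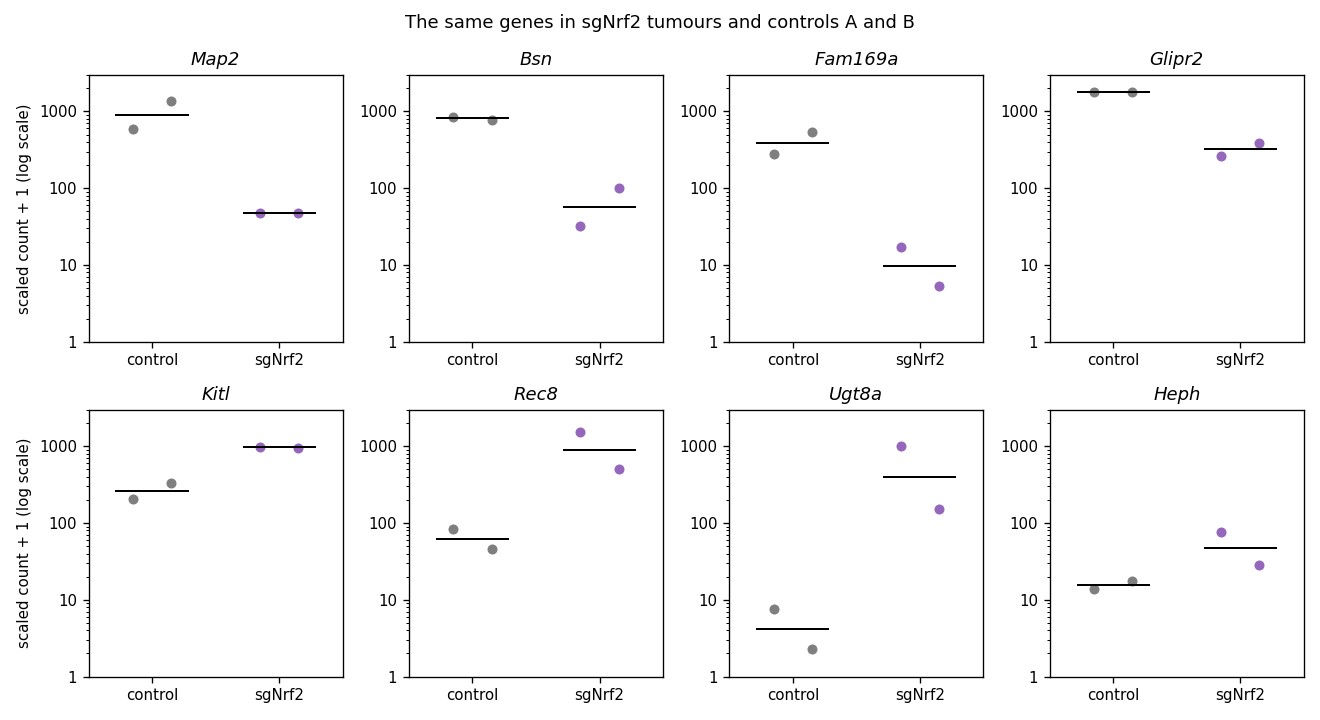
Scaled count plus 1 (log axis) of the same 8 genes in control libraries A and B and sgNrf2 tumours A and B (points), with the geometric mean (line). Each gene lies on the same side of its controls as in sgKeap1 against sgCul3, with Heph the closest at 76.2 and 27.1 against 12.9 and 16.5.

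Over all genes, the side on which the sgNrf2 tumours lay was counted beside the side of the sgKeap1 tumours. Among 973 genes tested in both tables with all sgKeap1 tumours above sgCul3, 32.8% lay above both controls in sgNrf2 and 33.9% below. Among 1070 genes with all sgKeap1 tumours below sgCul3, 44.5% lay above and 19.3% below. Over all 12905 genes the shares were 33.3% and 30.5%. By limma calls in sgNrf2, 5.76% of the 973 genes were higher and 2.98% lower. Of the 1070 genes 1.96% were called higher and 1.21% lower, against 1.91% and 2.64% of all 12905.

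A further 12 genes did not pass but had the most extreme moderated t of their direction, 6 each, where the mean over the 6 tumours was 50 or more, and DESeq2 on recovered reads called each of them. Cyp2a5, a P450 of nicotine and coumarin metabolism whose reads may be shared with its copy Cyp2a4, was at 4388, 11100 and 1937 in sgKeap1, at 299.8, 403 and 295 in sgCul3 and at 8.77 to 40.3 in sgGFP. It stood in 3 separate steps, lowest in sgGFP (sgKeap1 minus sgCul3: 3.78 ± 0.66, adjusted p = 0.099). In sgNrf2 it was at 10810 and 1180 against 20.49 and 161. Cachd1 showed the same order, with 363, 259.5 and 310.2 in sgKeap1, 84.3, 33.7 and 30.5 in sgCul3 and 0.895 to 6.07 in sgGFP (2.74 ± 0.48, adjusted p = 0.099). Hamp, or hepcidin, the liver hormone that holds back iron export, was at 1559, 4164 and 1948 in sgKeap1 and at 119, 419 and 343 in sgCul3, with 118 to 373 in sgGFP (3.17 ± 0.55, adjusted p = 0.099). Unlike the 8 called genes, Hamp overlapped its controls in the second table, with 221 and 375 in sgNrf2 and 846 and 277 in controls A and B. Id1, like Hamp a target of BMP signalling, was at 287, 233 and 307 in sgKeap1 and 117, 143 and 71.9 in sgCul3, and at 83.4 and 71.7 in sgNrf2 against 115 and 363 in its controls (sgKeap1 minus sgCul3: 1.35 ± 0.36, adjusted p = 0.36). The transcription factor Mecom, Eif4e3 and Tbc1d23 had differences of 2.64 ± 0.44, 2.80 ± 0.49 and 1.25 ± 0.22 (adjusted p = 0.099 each). On the lower side stood, besides Keap1, the inositol phosphate kinase Itpka (-2.05 ± 0.34), Igsf9 (-3.10 ± 0.53), Ezh2, the methyltransferase that places H3K27 methylation (-1.35 ± 0.26), Tmem109 (-1.70 ± 0.33) and Atp6v0e2 (-2.33 ± 0.46), with adjusted p of 0.099 to 0.17. Ezh2 was at 132, 146 and 167 in sgKeap1, at 333, 440.4 and 374 in sgCul3 and at 274 to 527 in sgGFP, so all 3 sgKeap1 tumours lay below all 7 others. In sgNrf2 Ezh2 was at 585 and 451 against 970.4 and 716. Cachd1, Mecom, Eif4e3, Tbc1d23 and Atp6v0e2 also kept their side there, without overlap. Igsf9 overlapped its controls, at 69.7 and 101 against 122 and 88.6. Keap1, Itpka and Tmem109 lay on the other side, above both controls. Keap1 was at 1483 and 1538 against 1308 and 1223, Itpka at 212 and 352 against 210 and 125. Tmem109 was at 680.5 and 500 against 389 and 328.

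NRF2 targets were described next, since both guides are meant to raise NRF2. Of the 53 list members tested, 36 were called higher in sgKeap1 against sgGFP and 25 in sgCul3 against the same controls, where 4.45% and 1.35% of all genes were called higher. Between the guides limma called 0 of the 53 (edgeR 0, DESeq2 3: Cat and Slc48a1 higher, Keap1 lower). At an unadjusted p under 0.05, 14 were higher and 3 lower in sgKeap1. The median log2 fold change, sgKeap1 minus sgCul3, was 0.44, against -0.0015 over all genes tested, and 46 members were positive and 7 negative. In 16 members (30.2%, against 7.52% of all genes) all sgKeap1 tumours lay above all sgCul3 tumours, and in 2 (3.77%, against 8.24%) below. The median was 0.44 to 0.58 with any 1 of the 6 tumours left out, and 0.21 with totals set equal, a scaling that moves the median of all genes to -0.23. Of the 14 higher, none passed over all genes.

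By role, the differences within the list were uneven. Among genes of glutathione synthesis, Slc7a11, the cystine importer, was at 4862, 2568 and 3672 in sgKeap1, at 2976, 983 and 1438 in sgCul3 and at 4.05 to 13.4 in sgGFP. sgKeap1 tumour 2 lay below sgCul3 tumour 1, and the difference between guides (1.15 ± 0.44) was small beside that of either from sgGFP (8.53 and 7.38). Gclc and Gclm together form glutamate-cysteine ligase, which makes the precursor of glutathione, and differed by 0.92 ± 0.31 and 1.08 ± 0.35, without overlap. Gclm was at 7741, 14100 and 10940 in sgKeap1, at 7442, 5790 and 2954 in sgCul3 and at 1702 to 2434 in sgGFP. Srxn1, the sulfiredoxin that repairs oxidised peroxiredoxins, was at 7861, 8317 and 7704 in sgKeap1, at 5822, 2038 and 3586 in sgCul3 and at 47.2 to 107 in sgGFP (1.19 ± 0.38). The sgKeap1 tumours were within a narrow range for Srxn1, while the sgCul3 tumours spread more widely below them. Catalase, Cat, was at 17660, 49300 and 20150 against 11530, 13310 and 7757 (1.29 ± 0.39, adjusted p = 0.40). The thioredoxin reductase Txnrd1 did not show such a step, with 7572, 6071 and 6847 in sgKeap1 and 7596, 4939 and 7553 in sgCul3 (0.05 ± 0.23). Pgd of the pentose phosphate pathway, with 9279, 4713 and 6649 against 8128, 4342 and 6132, and the carbonyl reductase Cbr3, with 6486, 5321 and 7035 against 5575, 4907 and 5433, overlapped as well (0.14 ± 0.31 and 0.24 ± 0.37).

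The export pumps Abcc2, Abcc3 and Abcc4 had all 3 sgKeap1 tumours above sgCul3, with differences of 0.83 ± 0.35, 1.46 ± 0.49 and 1.31 ± 0.63. Abcc1 and Abcc5 of the same list differed by only 0.28 and -0.11. Abcc3 was at 1546, 1376 and 870.1 in sgKeap1, 769.6, 588 and 193 in sgCul3 and 72.5 to 185 in sgGFP. Abcg2, a further pump, was at 1022, 1435 and 975.5 against 478, 587 and 755 (0.92 ± 0.22, adjusted p = 0.27), with 615 to 723 in sgGFP. The heme transporter Slc48a1 was at 1641, 959 and 1084 in sgKeap1, 631, 480.3 and 303 in sgCul3 and 95.8 to 214.5 in sgGFP (1.40 ± 0.36, adjusted p = 0.32). The quinone reductase Nqo1, at 4955, 5329 and 7498 against 4564, 3609 and 1780, differed by 0.92 ± 0.59. Gstp1, a glutathione S-transferase, went the other way: it was at 3897, 1830 and 3027 in sgKeap1, at 4959, 5286 and 7678 in sgCul3 and at 1113 to 1736 in sgGFP (-1.07 ± 0.31, adjusted p = 0.37). The list holds Keap1, the target of 1 of the guides, and its value is that given above.

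**Figure D4:**
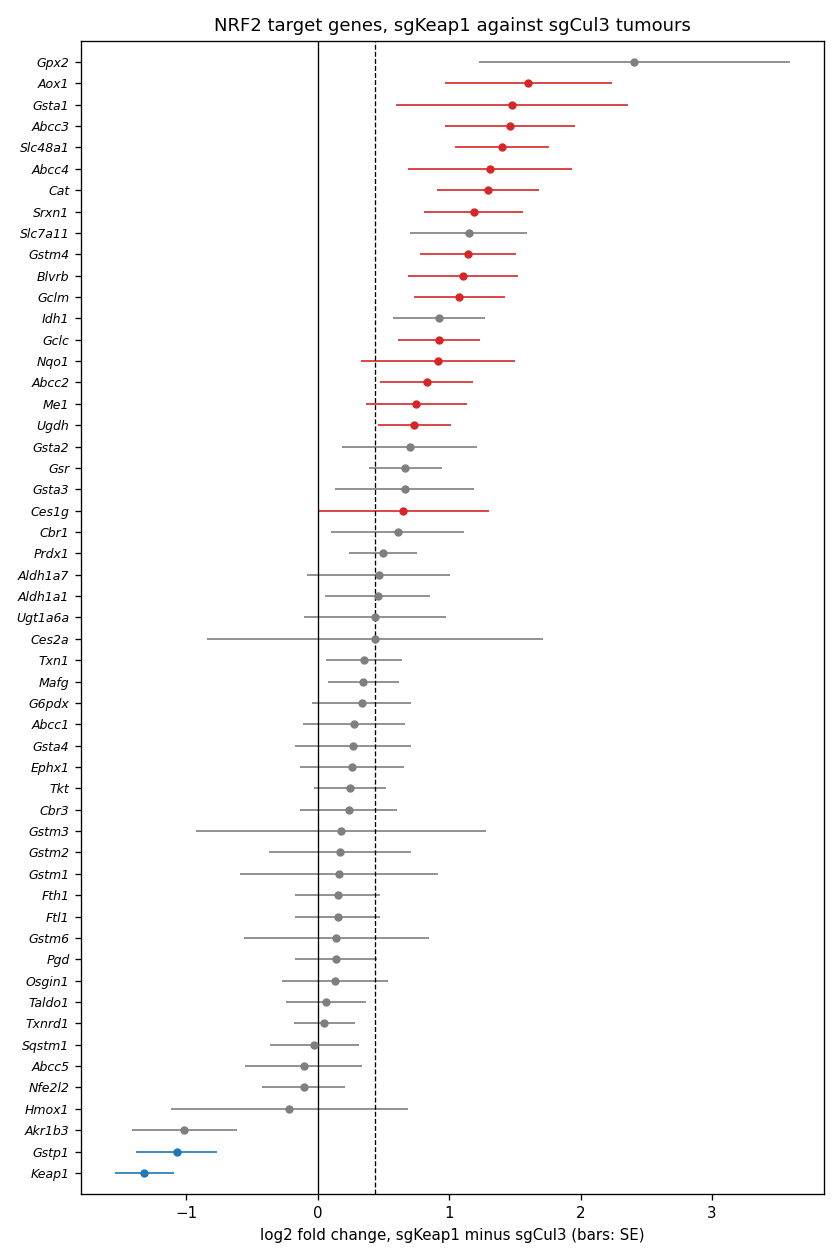
Log2 fold change, sgKeap1 minus sgCul3 (points, with SE as bars), of the 53 NRF2 target genes tested, with the median of 0.44 (dashed). Points in red (16) and blue (2) are genes whose tumours did not overlap; most lie to the right of 0, none passed over all genes.

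The 250 bases before the RefSeq start (GRCm38.p6) were searched for the letters TGACNNNGC, the core of the antioxidant response element that NRF2 binds, on both strands. A gene may have several windows and was counted if any held a match. So counted, a match stood in 11.5% of all 27025 genes of the table, in 14.0% of the 9694 tested genes found there, and in 10 of 45 NRF2 targets (22.2%). Of all 32851 windows 10.2% held one. Of the 8 called genes 7 were in the table, and none had a match in this window. The 3 windows below, from 1 NRF2 target with a match (in capitals, on the reverse strand, its first base 134 bases before the start) and from the called genes Ugt8a and Bsn without one, show what was searched.
Gclm, chr3:122245307-122245556, plus strand: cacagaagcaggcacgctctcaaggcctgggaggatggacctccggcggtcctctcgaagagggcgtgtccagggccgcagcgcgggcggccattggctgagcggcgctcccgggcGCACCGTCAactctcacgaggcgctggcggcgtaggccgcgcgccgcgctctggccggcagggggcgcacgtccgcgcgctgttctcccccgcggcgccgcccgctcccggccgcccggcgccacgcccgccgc
Ugt8a, chr3:125938653-125938902, minus strand: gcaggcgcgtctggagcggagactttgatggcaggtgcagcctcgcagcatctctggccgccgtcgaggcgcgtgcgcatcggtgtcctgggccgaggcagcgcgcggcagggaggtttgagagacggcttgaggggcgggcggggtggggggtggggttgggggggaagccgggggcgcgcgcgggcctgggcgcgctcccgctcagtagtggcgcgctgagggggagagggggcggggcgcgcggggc
Bsn, chr9:108190384-108190633, minus strand: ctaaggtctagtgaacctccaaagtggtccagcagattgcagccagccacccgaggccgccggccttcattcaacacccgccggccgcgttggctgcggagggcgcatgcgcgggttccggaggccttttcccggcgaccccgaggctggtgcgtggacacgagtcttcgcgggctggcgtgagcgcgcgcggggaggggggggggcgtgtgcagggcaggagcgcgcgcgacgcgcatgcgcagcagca
Gclm had higher levels in sgKeap1 and sgCul3 than in sgGFP. So had the NRF2 targets Srxn1 and Me1, which held no match to these letters in this window. The search covered these letters and these 250 bases only. An element with other letters, or one that reaches past the start or lies elsewhere, would be missed. Ugt8a and Bsn lay apart from sgGFP in sgKeap1. Whether a match goes with the pattern of levels was not tested.

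Other lists of detoxication and redox genes, some of which share members with the NRF2 targets, also had positive medians. Limma and edgeR called none of their members, and DESeq2 called 4 higher: Cat (adjusted p = 0.037), Txnip (0.047), Abcg2 (0.029) and the carboxylesterase Ces1b (0.030). Over all genes 7.52% lay above and 8.24% below without overlap. Of 33 genes that make glutathione or reduce peroxides, 8 lay above (24.2%) and 1 below, at a median of 0.49. Among them Txnip, which inhibits thioredoxin, was at 1582, 1974 and 2532 in sgKeap1, at 778, 865 and 1224 in sgCul3 and at 2551 to 4766 in sgGFP (1.09 ± 0.28, adjusted p = 0.34). Here the sgKeap1 tumours lay between the other groups. Prdx6, the peroxiredoxin that reduces lipid peroxides, was at 8485, 7670 and 4949 in sgKeap1, against 3685 to 4414 in sgCul3 and 3506 to 4609 in sgGFP (0.79 ± 0.25, adjusted p = 0.41). Glutathione S-transferases, whose copies may share reads, had 5 of 22 above (22.7%) and 1 below. Their median was 0.58, or 0.30 without sgCul3 tumour 3. Genes of conjugation and export had 7 of 31 above (22.6%) and 1 below (median 0.56). Quinone, carbonyl and aldehyde enzymes had 10 of 45 above (22.2%) and 1 below (median 0.46). Of 18 genes of NADPH supply only Me1, the malic enzyme, lay above without overlap (1820, 1423 and 1882 against 783, 950.0 and 1371), and their median of 0.12 had no firm sign: it was -0.01 without sgKeap1 tumour 1, 0.05 without sgCul3 tumour 2, 0.27 without sgCul3 tumour 1, 0.28 without sgKeap1 tumour 2 and -0.12 with totals set equal.

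**Figure D5:**
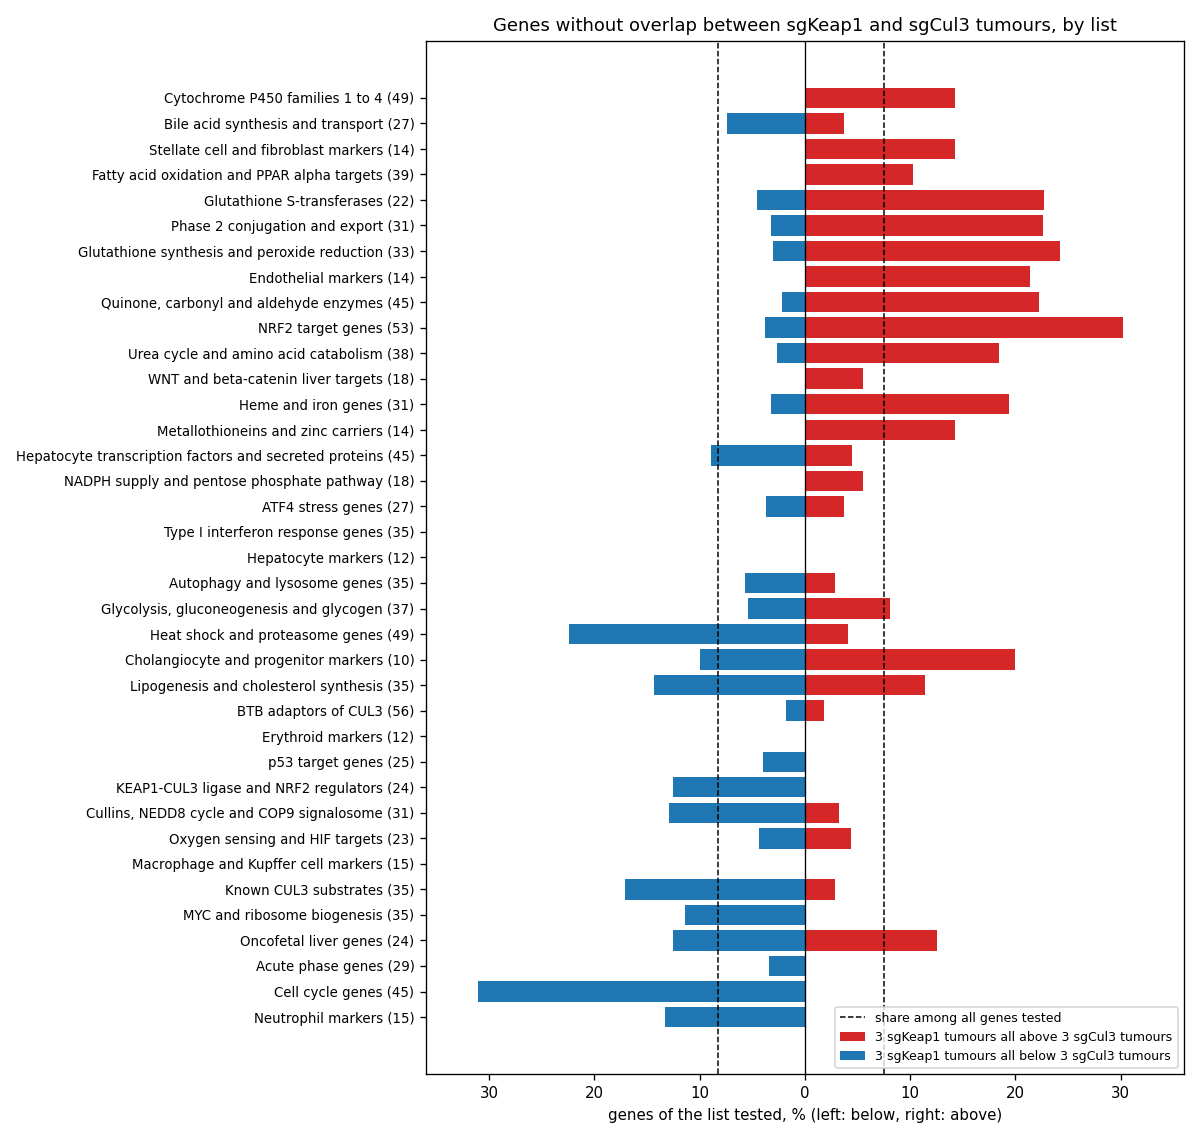
Share of the tested genes of each list (number in brackets) whose 3 sgKeap1 tumours all lay above (right) or all below (left) the 3 sgCul3 tumours, for the lists shown, each with at least 10 genes tested, ordered by median log2 fold change. Dashed lines mark the shares over all genes, 7.52% and 8.24%; NRF2 targets reach 30.2% on the right and cell cycle genes 31.1% on the left.

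Median values for liver functions depended on single tumours. P450 genes of families 1 to 4 had the highest median of the lists, 0.93 over 49 genes. Of these 7 lay above (14.3%, against 7.52% of all genes) and 0 below. That median was only -0.09 without sgKeap1 tumour 2 and 0.43 without sgCul3 tumour 1. It was 1.83, 1.89 and 1.89 without sgKeap1 tumour 1, sgKeap1 tumour 3 or sgCul3 tumour 2. Cyp2j6 was at 441, 1056 and 479 in sgKeap1 and at 13.8, 208 and 21.9 in sgCul3 (3.82 ± 0.91, adjusted p = 0.27), so all 3 sgKeap1 tumours were above for this gene. Without sgKeap1 tumour 2 the median of bile acid genes was 0.15 in place of 0.85, and that of genes of the urea cycle and amino acid catabolism -0.04 in place of 0.38. The former was 0.39 without sgCul3 tumour 1, and the latter 0.86, 0.58 and 0.64 without sgKeap1 tumours 1 or 3 or sgCul3 tumour 2. Gatm, which starts creatine synthesis, was at 423, 93.2 and 378 in sgKeap1, at 33.2, 87.7 and 26.6 in sgCul3 and at 649.7 to 2781 in sgGFP (2.47 ± 0.69, adjusted p = 0.36, or 0.016 with DESeq2). Genes of fatty acid oxidation had a median of 0.66, with 4 of 39 above (10.3%, against 7.52% of all genes) and 0 below. Their median was 0.40 without sgKeap1 tumour 2 and 0.39 without sgCul3 tumour 1. Among them Cd36, a fatty acid importer, was at 1769, 1239 and 1349 in sgKeap1, 489, 679.7 and 274 in sgCul3 and 509 to 844 in sgGFP (1.67 ± 0.32, adjusted p = 0.15, or 0.0025 with DESeq2). Thrsp, a regulator of lipogenesis, was at 485, 1326 and 651 in sgKeap1 and at 432.5, 59.4 and 31.3 in sgCul3 (2.97 ± 1.10, adjusted p = 0.45). Of 31 heme and iron genes 6 lay above (19.4%) and 1 below, at a median of 0.21, or -0.03 with totals set equal. It was 0.13 to 0.14 without sgCul3 tumours 1 or 3 or sgKeap1 tumour 2, 0.33 without sgKeap1 tumour 1 and 0.38 without sgCul3 tumour 2. The brain metallothionein Mt3 was at 1509, 879.7 and 527 in sgKeap1, at 245, 65.6 and 7.82 in sgCul3 and at 0.767 to 4.72 in sgGFP (4.02 ± 0.94, adjusted p = 0.25).

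Between the guides none of the cell cycle genes was called by limma, edgeR or DESeq2, and most had lower levels in sgKeap1 than in sgCul3. Of 45 members 14 (31.1%) lay below without overlap and 0 above, 35 had a negative and 10 a positive fold change, and 13 were lower and 0 higher at an unadjusted p under 0.05. The median was -0.35, and -0.45 to -0.28 with any 1 of the 6 tumours left out. Against sgGFP the median was 0.016 in sgKeap1 (4 called higher, 1 lower) and 0.33 in sgCul3 (5 higher, 0 lower). By the median, sgKeap1 thus lay near the controls and sgCul3 above them. Cyclin E1, Ccne1, which CUL3 is known to target for degradation as a protein, had the smallest p. Its transcript was at 513, 579.7 and 822.5 in sgKeap1, at 1150, 1371 and 1089 in sgCul3 and at 479 to 741 in sgGFP (-0.93 ± 0.24, adjusted p = 0.34). The sgKeap1 tumours overlapped sgGFP here and the sgCul3 tumours were the highest. Ccna2, cyclin A2, was at 1853, 1537 and 1909 against 2904, 2480 and 2930 (-0.65 ± 0.21), with 1690 to 2573 in sgGFP, and the mitotic kinase Aurka at 485, 565.5 and 648 against 993, 767 and 1031 (-0.71 ± 0.23). Mki67, a marker of dividing cells, was at 1117, 503 and 1163 in sgKeap1, 1829, 1329 and 1559 in sgCul3 and 1504 to 2324 in sgGFP (-0.84 ± 0.32, adjusted p = 0.45). Cyclin D1, Ccnd1, overlapped, at 896, 1654 and 915 against 381, 259 and 1656. Genes of MYC and ribosome biogenesis had 0 of 35 above and 4 below (11.4%, against 8.24% of all genes), at a median of -0.24. That median was -0.11 without sgKeap1 tumour 2, and -0.36, -0.38 and -0.37 without sgKeap1 tumours 1 or 3 or sgCul3 tumour 2.

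The scaffold's own pathway was read from 3 lists. Over all genes 8.24% lay below and 7.52% above in sgKeap1 without overlap. Of 35 genes for known CUL3 substrates, 6 lay below (17.1%) and 1 above (2.86%). Their median was -0.19, and -0.05 without sgCul3 tumour 3. Rhob, a relative of RHOA, was the 1 above, at 879, 742 and 857 in sgKeap1, 441, 523 and 592 in sgCul3 and 584 to 802 in sgGFP (0.68 ± 0.20, adjusted p = 0.40). Wnk4, a kinase that CUL3 with the adaptor KLHL3 degrades as a protein, was at 45.8, 28.4 and 28.9 in sgKeap1, 95.3, 50.5 and 148 in sgCul3 and 69.0 to 101 in sgGFP (-1.37 ± 0.39, adjusted p = 0.37). Of 56 BTB adaptors 1 lay above and 1 below (1.79% each). Klhl13, an adaptor that acts in mitosis, was at 109.5, 126 and 62.1 in sgKeap1, at 6.91, 31.02 and 4.69 in sgCul3 and at 1.53 to 9.74 in sgGFP (2.95 ± 0.67, adjusted p = 0.22, or 0.027 with DESeq2). Klhl23 was the 1 below, at 37.6, 107 and 46.2 against 202, 129 and 156 (-1.45 ± 0.46). Cullins and the COP9 signalosome had 4 of 31 below (12.9%) and 1 above (3.23%). Their median of -0.11 had no firm sign, with 0.04 without sgKeap1 tumour 1. Among those below were Cops6 (887.5, 495 and 678 against 945, 1119 and 1505), Gps1 and Cand1, the exchange factor of cullins (675, 713.5 and 834 against 1021, 1009 and 1602). Heat shock and proteasome genes had 11 of 49 below (22.4%) and 2 above (4.08%), at a median of -0.06. That median was 0.03 without sgCul3 tumour 2, -0.11 to -0.14 without any 1 of the other 5 tumours and -0.19 with quantile normalization. Psmd3 and Psmd2, subunits of the proteasome cap, differed by -0.57 ± 0.21 and -0.46 ± 0.21.

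No stress or repair gene described here was called by limma, edgeR or DESeq2. Of 25 p53 targets 0 lay above and 1 below, Pmaip1, which encodes NOXA, at 79.3, 87.2 and 98.1 in sgKeap1, at 192, 134 and 503 in sgCul3 and at 30.1 to 94.4 in sgGFP (-1.40 ± 0.51, adjusted p = 0.45). Cdkn1a, which encodes p21, was at 1218, 310.1 and 658 against 1523, 865.8 and 2321. For the p53 targets the share below was 4.0%. Of 27 ATF4 stress genes 1 lay above and 1 below (3.7% each). Of 35 autophagy and lysosome genes 1 lay above (2.86%) and 2 below (5.71%). Over all genes 7.52% lay above and 8.24% below without overlap. Of 35 interferon response genes none lay above or below, and their median of 0.03 ran from -0.61 without sgKeap1 tumour 2 to 0.29 without sgCul3 tumour 2. Fn3k, the kinase of the title of the series, was at 25.3, 197 and 28.9 in sgKeap1 and at 0, 25.7 and 3.91 in sgCul3, with 9.21 to 37.2 in sgGFP, and its high value came from sgKeap1 tumour 2 (3.0 ± 0.98, adjusted p = 0.42). Its relative Fn3krp was at 56.8 to 85.1 in sgKeap1 and 70.9 to 134 in sgCul3.

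Markers of other cells of the liver were described as well. Between the guides limma and edgeR called none of their genes, and DESeq2 called 1, Tspan8. In bulk tumours, fewer cells of a type and less RNA per cell cannot be told apart. Of 14 endothelial markers 13 had a positive fold change. Without overlap 3 lay above (Lyve1, Cdh5 and Stab1), which is 21.4%, against 7.52% of all genes. The median of these markers was 0.47 (0.24 without sgKeap1 tumour 2, 0.85 without sgKeap1 tumour 3). Their summed level was 1020.2 to 2242 in sgKeap1, 681 to 1176 in sgCul3 and 1472 to 2036 in sgGFP. Of 14 stellate cell and fibroblast markers 12 were positive and 2 lay above (14.3%, against 7.52% of all genes), at a median of 0.74. They summed to 3303 to 7218 in sgKeap1, 1597 to 3998 in sgCul3 and 1826 to 3645 in sgGFP. Cells of both kinds can make stem cell factor, and the part of these markers in the difference of Kitl was not tested. All 15 neutrophil markers had a negative fold change, at a median of -1.39 (-2.02 to -0.37 with 1 tumour left out, the latter without sgCul3 tumour 2). Of them 2 lay below without overlap (13.3%, against 8.24% of all genes). They summed to 579.7 to 3103 in sgKeap1, 1456 to 11517 in sgCul3 and 2511 to 7616 in sgGFP. Against sgGFP their median was -3.20 in sgKeap1 (10 called lower) and -1.89 in sgCul3 (0 called lower). Elane, the neutrophil elastase, had 2 reads over the sgKeap1 tumours, for a ratio of sgCul3 to sgKeap1 of 7.70 (exact 95% interval 1.87 to 67.9, counting error only). Erythroid and macrophage markers had none above or below, and their medians of -0.09 and -0.18 had no firm sign. Erythroid markers were at 0.73, -0.39 and -0.92 without sgCul3 tumours 2, 1 or 3. Against sgGFP their median was -3.09 in sgKeap1 (8 called lower) and -2.95 in sgCul3 (6 called lower). Macrophage markers were at 0.62 and 0.31 without sgCul3 tumour 2 or sgKeap1 tumour 3, and at -0.34 to -0.07 without any 1 of the others. Of 10 cholangiocyte and progenitor markers, Krt19 had higher levels in sgKeap1 (876, 193 and 82.3 against 55.3, 57.6 and 1.56) and Tspan8 lower (134, 64.9 and 159 against 381, 190.5 and 1257), with adjusted p of 0.41 and 0.43 (0.049 for Tspan8 with DESeq2). Every marker in the table had reads in at least 1 of the 6 tumours.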

How the data were processed

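RNA of MYC-driven mouse liver tumours was sequenced from Illumina TruSeq RNA libraries, per the labels' protocols. The submitters' processing notes name Picard, HTSeq, DESeq and mm10; which aligner was used, and every version, is not stated there. The deposited signal values are counts per gene divided by size factors, with 1 added by the authors in the first table (16821 genes). The second table (16095 genes) was scaled separately, and 4 further rows that name no gene were left out. Values gave whole reads within 0.1 reads for 100% of them, which gave the depths.

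Groups came from the labels. Genes with a mean of at least 10 over the 10 libraries (13045) were fitted on log2(deposited value + 1), equal to log2(scaled count + 2), by limma (version 3.58.1, under R 4.3.3), so fold changes of low genes are understated. The sgGFP, sgCul3 and sgKeap1 tumours shared 1 spread, p-values were adjusted by Benjamini-Hochberg over all genes, and an adjusted p under 0.05 was a call. Fold changes and SE are on this log2 scale. The sgNrf2 fit (13989 genes, 2 against 2) was added after its values had been seen. edgeR 4.0.16 and DESeq2 1.42.0 on recovered reads were alternatives, with other filters, pseudocounts, scalings, a replicate block, a depth class (the 3 tumours of lower depth against the rest) and each library left out. Exact 95% intervals cover counting error only.

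The members and the 40 gene lists were chosen with earlier results of these data known, and 1 list is not reported here. Named by rule were 6 fixed genes, every called gene, genes filling each direction to 10 by moderated t, and up to 3 members of each list by unadjusted p. Other genes named, most of them NRF2 targets and cell cycle genes, were chosen after their values were seen. Gene positions are from GENCODE M21 (16769 identifiers matched), promoter windows from RefSeq.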

Additional observations from a re-analysis of the deposited data

Results flagged for a closer look

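Rec8 in the sgGFP controls had 1 tumour apart from the others: sgGFP tumour 1 was at 35.08, against 26.85, 27.46 and 27.74 in sgGFP tumours 2, 3 and 4, and its gap divided by the range exceeded Dixon's 95% critical value for 4 samples. This was 1 of 25 genes looked at, and chance flags about 1 in 20 groups. The sgKeap1 tumours, at 205 to 346, lay far above all 4 controls.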

How the results depend on the processing

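The count of genes called between sgKeap1 and sgCul3, 8 (4 higher and 4 lower), was 104 with DESeq2 (64 and 40), 0 with the 2 groups fitted alone (0 and 0), 5 with the depth class as a term (2 higher), and 2 higher with a mean of at least 50. With 1 library left out it ran from 0 to 9 (0 to 6 higher, 0 to 4 lower). In sgKeap1 against sgGFP the 1020 calls became 2143 with DESeq2, 1778 with the replicate block and 128 with the depth class, and 319 to 1516 with 1 library left out. In sgCul3 against sgGFP the 287 became 926 with DESeq2, 156 with the 2 groups alone, 84 with the depth class and 162 with a mean of at least 50, and 68 to 328 with 1 library left out. In sgNrf2 against control the 617 (266 higher, 351 lower) became 2639 with DESeq2, 972 with quantile normalization (407 and 565) and 1236 with equal totals (874 and 362), a scaling that moved the median of all genes to 0.34, and 3 to 3383 with 1 library left out. DESeq2 called 3 NRF2 targets in place of 0 and gave Keap1 a difference of -1.29 (adjusted p = 0.000198). The median of the NRF2 targets was 0.21 with equal totals. The sign turned for Nfe2l2, whose values ran from -0.34 to 0.25 with 1 library left out (0.045 without sgKeap1 tumour 1), and for Myc, from -0.35 to 0.95 (-0.15 without sgKeap1 tumour 3) and -0.089 with equal totals. The cause was not tested. The labels do not say what the replicate numbers mean, and correlations among so few tumours cannot settle whether they pair them. Same-numbered sgKeap1 and sgCul3 tumours correlated at 0.24, 0.52 and 0.098, and the others at -0.44 to 0.26. The highest of these others was sgKeap1 tumour 3 with sgCul3 tumour 1. With the number as a replicate block 9 genes were called between the guides (5 higher, 4 lower), and of the 8 these included Rec8, Kitl, Glipr2 and Bsn. Depth limits the low genes: 3 reads correspond to 0.25 to 0.47 CPM.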
